A study of Mus musculus with 2 samples.

Results

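CpG methylation was described at 5 neuron identity genes: Prox1, Neurod1, Neurod2, Tbr1 and Rbfox3. The set was drawn up for excitatory neurons and the granule neurons of the dentate gyrus, while Rbfox3 marks mature neurons in general. The genes were chosen by name, and their members were the CpG cytosines in fixed mm9 spans around each gene that had at least 10 reads in both libraries. These were 1491 of 5076 listed cytosines in the spans, out of 2312276 analysed over the genome: 262 at Prox1, 141 at Neurod1, 223 at Neurod2, 203 at Tbr1 and 662 at Rbfox3. The spans were chr1:191935001-192005000 (Prox1), chr2:79284001-79304000 (Neurod1), chr11:98180001-98198000 (Neurod2), chr2:61632001-61662000 (Tbr1) and chr11:118345001-118780000 (Rbfox3).

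The study compared hippocampus, a brain region needed for memory, between C57BL/6 mice without treatment and C57BL/6 offspring exposed through development to 5000 ppb arsenic trioxide (ATO). The dams drank ATO in water from before mating through lactation, and the offspring went on drinking it after weaning. There was 1 control library and 1 library of ATO-exposed offspring, called the exposed library here, both made by target capture and bisulfite sequencing. Bisulfite reads do not separate methylated from hydroxymethylated cytosine. The labels name no age, and nothing says if a library holds 1 animal or several. Tests therefore compare the 2 libraries and not the exposure, and no difference has a replicate check.

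Prox1 is a homeobox transcription factor that sets and keeps the identity of dentate granule neurons. Neurod1 and Neurod2 are basic helix-loop-helix factors that drive the differentiation and maturation of excitatory neurons, and Tbr1 is a T-box factor of glutamatergic projection neurons. Rbfox3 encodes NeuN, an RNA-binding splicing regulator used as the standard mark of mature neurons. In mammals, CpG-rich DNA at gene starts is usually unmethylated, often in broad domains at developmental transcription factors, while the bodies of long genes are usually methylated. Methylation tables hold no expression values, so whether the tissue expressed these genes could not be checked here. Whole hippocampus mixes neurons with glia and other cells, and a partly methylated level cannot be told apart from a mixture of methylated and unmethylated cells.

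The promoter sequences given by RefSeq (build GRCm38.p6) were placed on the mm9 tables by the spacing of their CpGs, to show which promoter CpGs were measured. The Neurod1 sequence matched a single place, with 26 of its 26 CpGs listed, and that of Neurod2 another, with 16 of 16. For Prox1, 24 of 25 CpGs of 1 of the 2 promoters matched. The second Prox1 promoter and those of Tbr1 and Rbfox3 gave no match by this rule. The 250 bases upstream of the first transcribed base are shown for the 2 NeuroD genes, since these hold measured CpGs. They lie at chr2:79456637-79456886, minus strand (Neurod1), and chr11:98329646-98329895, minus strand (Neurod2), both in GRCm38.p6. Capitals mark the CpGs analysed in both libraries, 21 of 22 at Neurod1 and 3 of 11 at Neurod2.
Neurod1: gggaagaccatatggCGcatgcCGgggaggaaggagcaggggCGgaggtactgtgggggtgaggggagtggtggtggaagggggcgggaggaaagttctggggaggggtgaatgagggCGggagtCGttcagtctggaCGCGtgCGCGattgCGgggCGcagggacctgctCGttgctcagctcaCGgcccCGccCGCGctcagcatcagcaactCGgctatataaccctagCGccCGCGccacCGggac
Neurod2: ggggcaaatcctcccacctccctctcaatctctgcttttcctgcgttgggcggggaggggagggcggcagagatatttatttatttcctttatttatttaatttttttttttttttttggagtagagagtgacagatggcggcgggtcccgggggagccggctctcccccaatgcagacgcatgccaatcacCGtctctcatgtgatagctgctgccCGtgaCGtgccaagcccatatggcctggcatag

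Over their full 300 bases the Prox1, Neurod1 and Neurod2 promoters held 25, 26 and 16 CpGs, against a median of 7 over the 32851 promoters of the table. The Neurod1 promoter was unmethylated in both libraries. Where 2 levels are given without naming the library, the control comes first. Its 25 analysed CpGs averaged 2.08% in the control against 3.94% in the exposed library, and no single one was above 16.7% in either. The 5 analysed CpGs of the Prox1 promoter averaged 3.33% and 2.0%. At Neurod2 the 8 analysed CpGs averaged 12.9% in the control against 5.04% in the exposed library, with median depths of 17 and 45.5 reads. That difference was -7.83 points with a 95% counting interval of -23.7 to 8.02, so it was not detectable at this depth. Here and below, a counting interval covers the sampling of reads only, after calls that can share a DNA fragment were scaled down, and differences subtract the control value from the exposed value, in percentage points.

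The spans were read at depths like those of the genome. Members had median coverages of 40 reads in the control and 44 with exposure, against 41 and 44 over all analysed cytosines, and 72260 and 80790 calls in all. The libraries held 135987272 and 147924810 calls over the genome. All analysed cytosines at Prox1, Neurod1, Neurod2 and Tbr1 lay on the reverse strand, as did 659 of 662 at Rbfox3. In the control, each of the 4 transcription factor genes had over 50% of its cytosines under a level of 10%. The share of cytosines under 10% in the control was 51.1% at Prox1, 61.0% at Neurod1, 78.9% at Neurod2 and 67.0% at Tbr1, against 29.8% at Rbfox3 and 43.6% over all analysed cytosines. In the exposed library these shares were 40.5% at Prox1, 73.0% at Neurod1, 80.7% at Neurod2, 61.1% at Tbr1 and 32.6% at Rbfox3, against 44.2% of all, so that Prox1 lay below the genome. At Rbfox3 48.0% of cytosines lay between 20 and 80% in the control against 43.8% in the exposed library. At Prox1 these shares were 19.1% and 41.6%, and over all analysed cytosines 25.5% and 26.6%.

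Mean levels differed in both directions at the 5 genes. Prox1 had 28.2% in the control against 26.9% in the exposed library, a difference of -1.35 points (SD between cytosines 15.6, interval -4.57 to 1.86). Neurod1 had 15.6% and 8.79%, a difference of -6.80 points (SD 12.8, interval -11.5 to -2.12). Neurod2 had 8.30% and 7.0%, a difference of -1.30 points (interval -3.90 to 1.29). Tbr1 had 13.4% and 16.2%, a difference of 2.83 points (interval -1.03 to 6.70). Rbfox3 had 35.9% and 35.2%, a difference of -0.77 points (interval -2.62 to 1.08). Of the 5 intervals, that of Neurod1 alone lay wholly on 1 side of 0. At a coverage minimum of 30 that of Tbr1 did as well, at 4.20 ± 3.72 points. The mean over all analysed cytosines was 38.0% in the control against 36.7% in the exposed library, a difference of -1.28 points. The Prox1 mean combined losses and gains in different places, described next.

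Each cytosine was compared between the libraries by Fisher's exact test, two-sided, with p adjusted by Benjamini-Hochberg over the genome. Calls needed an adjusted p under 0.05 and levels at least 25 points apart. Over all analysed cytosines 2.65% were called, 1.73% lower and 0.916% higher in the exposed library. Of the 1491 members 63 were called, 44 lower and 19 higher. At Prox1 23 of 262 (8.78%) were called, 18 lower and 5 higher, and at Neurod1 17 of 141 (12.1%), all lower. The shares at the other genes were nearer to that of the genome. They were 3 of 223 at Neurod2 (1.35%), all lower, 6 of 203 at Tbr1 (2.96%), all higher, and 14 of 662 at Rbfox3 (2.11%), 6 lower and 8 higher. Tbr1 was near it only with both directions summed: its 2.96% higher stood against 0.916%, and its 0 lower against 1.73%. At an unadjusted p under 0.05 by the same exact test, 12.8% of all analysed cytosines passed, 185085 lower and 110827 higher. The shares were 22.5% at Prox1 (37 lower, 22 higher), 19.9% at Neurod1 (27 lower, 1 higher), 7.62% at Neurod2 (13 lower, 4 higher), 12.3% at Tbr1 (2 lower, 23 higher) and 14.0% at Rbfox3 (50 lower, 43 higher). Those of Tbr1 and Neurod2 were thus not above that of the genome. Cytosines with a mean level between 20 and 80% are called more often, at 9.25% over the genome. Within that range 16 of 30 were called at Neurod1 (53.3%), 15 of 73 at Prox1 (20.5%), 6 of 40 at Tbr1 (15%), 2 of 19 at Neurod2 (10.5%) and 14 of 311 at Rbfox3 (4.50%). Neighbouring cytosines share reads and are not independent, so a single changed region can hold most calls of a gene.

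**Figure D1:**
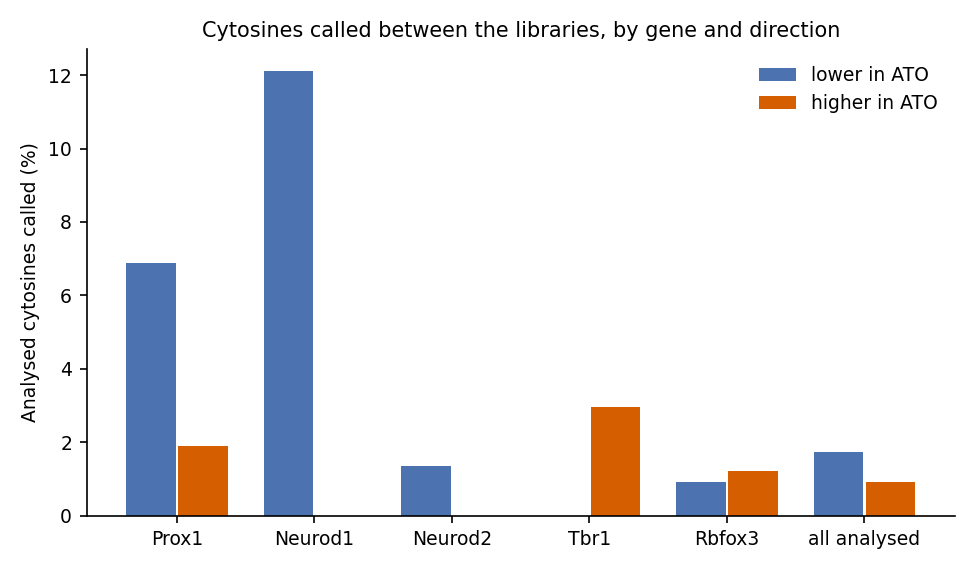
Percent of analysed cytosines called lower (blue) or higher (orange) in the exposed library at each gene and over all analysed cytosines, by Fisher's exact test with genome-wide adjustment. Prox1 and Neurod1 had lower calls at 6.87% and 12.1%, against 1.73% of all analysed cytosines, while the called cytosines of Tbr1 were all higher (2.96%).

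To follow the differences along each gene, analysed cytosines were grouped into blocks wherever the gap to the next one was at most 1000 bp. This uses positions alone and gave 68 blocks, 31 of them with at least 10 cytosines. Of 52237 such blocks over the genome, 2.19% were lower in the exposed library by at least 20 points. Among the 31 member blocks 3 were, 2 at Prox1 and 1 at Neurod1, and 0 were higher by that much. All 3 had a mean level of both libraries between 20 and 80%. In that range the share lower by at least 20 points was 4.59% of 24445 genome blocks. Shares of genome blocks given below count blocks at all levels, also those too low to fall that far.

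At Prox1 the CpG-rich start was unmethylated in both libraries. Farther inside the gene, the 4 analysed blocks were less methylated in the exposed library. No cytosine between 2.0 and 22.2 kb downstream of the start was analysed. The CpG-rich DNA upstream was higher in the exposed library at the main coverage minimum of 10. The matched first transcribed base was chr1 position 191994706 on the minus strand, so the gene runs toward lower positions. RefSeq gives the gene a length of 52.8 kb in GRCm38, and no mm9 annotation of exons was used here. The block ending at the start, chr1:191992744-191994697, averaged 2.47% in the control against 2.61% in the exposed library over 76 cytosines, and 0 of these were called. The difference was 0.15 points (interval -3.83 to 4.12). The bin over the start, chr1:191994501-191995000, was the least methylated dense bin of the span by the mean of both libraries, at 2.89% and 2.50%.

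Inside Prox1, 4 blocks lay between 22.2 and 48.5 kb downstream of the start, within the RefSeq length. Over their 56 cytosines the level was 82.1% in the control against 59.8% in the exposed library, with median depths of 57 and 75 reads. The difference was -22.3 points (interval -27.5 to -17.1, SD between cytosines 12.4), and 55 of the 56 cytosines were lower. Cytosines above 80% numbered 34 in the control against 8 in the exposed library. All 18 lower calls of the gene were in these blocks. This grouping was chosen after the values were seen. For comparison, DNA more than 2000 bp from CpG-dense bins differed by -2.70 points over the genome, from 68.6% to 65.9%. The sets are not alike, since the block chr1:191971638-191972505 lies in a dense bin and its shore. All Prox1 cytosines of the class compared, 45 with those upstream of the gene, differed by -15.4 points.

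The difference was largest in the block chr1:191953359-191955617, 39.1 to 41.3 kb downstream. It read 83.2% and 55.2% over 20 cytosines, a difference of -28.0 points (interval -35.3 to -20.8), with all 20 lower and 10 called. A mean difference this low or lower was found in 0.557% of blocks of the genome with at least 10 cytosines. The block chr1:191971638-191972505, 22.2 to 23.1 kb downstream, read 81.7% and 60.6% over 23 cytosines, of which 22 were lower and 7 called. Its difference was -21.1 points (interval -30.6 to -11.7), with median depths of 55 and 88 reads. The block nearest the end of the gene, chr1:191946173-191946710, was lower in 10 of 10 cytosines, at 90.6% and 76.2%, with 1 called. The remaining block held 3 cytosines at 49.0% and 29.5%, with an interval on the difference of -53.6 to 14.6.

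Bins of 500 bp were tested as well, on summed calls divided for shared fragments. Bin calls needed an adjusted p under 0.05 and levels at least 20 points apart, which 1.8% of 152175 bins reached, 1.17% lower and 0.63% higher. Of the 105 bins tested in the spans 3 were called, all at Prox1 and all lower. The bin chr1:191953001-191953500 read 79.2% (exact 95% interval 68.8 to 87.8) in the control against 42.7% (31.8 to 55.3) in the exposed library over 5 cytosines, at mean depths of 78.0 and 74.0 reads. Its adjusted p was 0.00101 by Fisher's exact test. The next bin, chr1:191953501-191954000, read 81.5% and 50.2% (adjusted p = 0.00398, exact test). The third, chr1:191971501-191972000, read 89.98% and 65.5% (adjusted p = 0.0174, exact test). The CpG-dense bin beside it, chr1:191972001-191972500, had 15 cytosines at 83.7% and 62.4% and was not called (adjusted p = 0.0978, exact test). That bin was the most methylated dense bin of the span. Single cytosines showed the same loss. The largest was at position 191953582, with 76.4% of 55 reads in the control against 32.2% of 59 in the exposed library (adjusted p = 0.000292, exact test). Position 191953435 read 70.5% and 29.3%, and position 191971768 read 92.3% and 51.6%.

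Upstream of Prox1 the direction turned. The block chr1:191996209-191999565, 1.5 to 4.9 kb upstream, is CpG-rich with 161 listed CpGs, but it was not as empty of methylation as the start. It averaged 12.7% in the control against 19.6% in the exposed library over 118 cytosines, of which 78 were higher and 29 lower. The difference was 6.89 points (interval 0.73 to 13.1), and 5.77% of blocks of the genome had a difference this high or higher. At a coverage minimum of 5 it was 5.53 ± 6.58 points, which includes 0. The widest bin difference there was at chr1:191997001-191997500, with 16.2% and 33.6%, where 17 of 17 cytosines were higher, but the bin was not called (adjusted p = 0.377, exact test). In this block 4 cytosines were called higher. Position 191997318 read 5.0% and 33.3% of 60 reads in each library, and position 191996959 read 0 of 37 reads in the control, which allows up to 8.11%, and 28.1% of 32 in the exposed library. The last block, chr1:192002796-192003231, about 8.1 kb upstream, was methylated in both, at 92.9% and 98.8%. It held the fifth higher call, at position 192003209, with 68.4% of 19 reads and 100% of 56.

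At Neurod1 the start and the DNA after it were unmethylated in both libraries, and the calls lay in a CpG-rich stretch upstream of it. The matched first transcribed base was chr2 position 79296793, minus strand, and RefSeq gives a gene length of 4.0 kb. The block chr2:79294077-79297250, from 0.5 kb upstream to 2.7 kb downstream of the start, averaged 3.68% in the control against 3.64% in the exposed library over 94 cytosines, and 0 of them were called. The difference was -0.045 points (interval -3.66 to 3.57). The least methylated dense bin of the span by that mean, chr2:79297001-79297500, read 1.53% and 3.06%.

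The block chr2:79299060-79299707, 2.3 to 2.9 kb upstream, averaged 34.7% in the control against 12.2% in the exposed library over 40 cytosines. The difference was -22.5 points (interval -36.6 to -8.46, SD 11.1), with 38 cytosines lower, 1 higher and 1 equal. All 17 called cytosines of Neurod1 lay in this block of 648 bp. Median depths were 33 and 43.5 reads. A difference this low was found in 1.47% of blocks of the genome. Position 79299297 read 54.2% of 59 reads in the control against 15.7% of 83 in the exposed library (adjusted p = 0.000197, exact test). Position 79299335 read 43.4% and 6.25%, and position 79299528 read 44.0% and 6.25%.

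The 2 bins of this block were not called once calls were divided for shared fragments. The dense bin chr2:79299001-79299500 read 39.7% (exact 95% interval 24.4 to 54.5) and 14.7% (6.86 to 25.8), with an adjusted p of 0.171 by the exact test. The neighbouring bin read 35.7% and 7.06% (adjusted p = 0.0824, exact test). With all calls counted as independent both were called. Farther upstream, 4 cytosines at chr2:79300991-79301169 were also all lower, at 53.5% and 38.1%, with none called. The 3 cytosines at the other end of the span, 8.9 to 9.1 kb downstream of the start, were methylated at 83.3% and 85.7%.

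**Figure D2:**
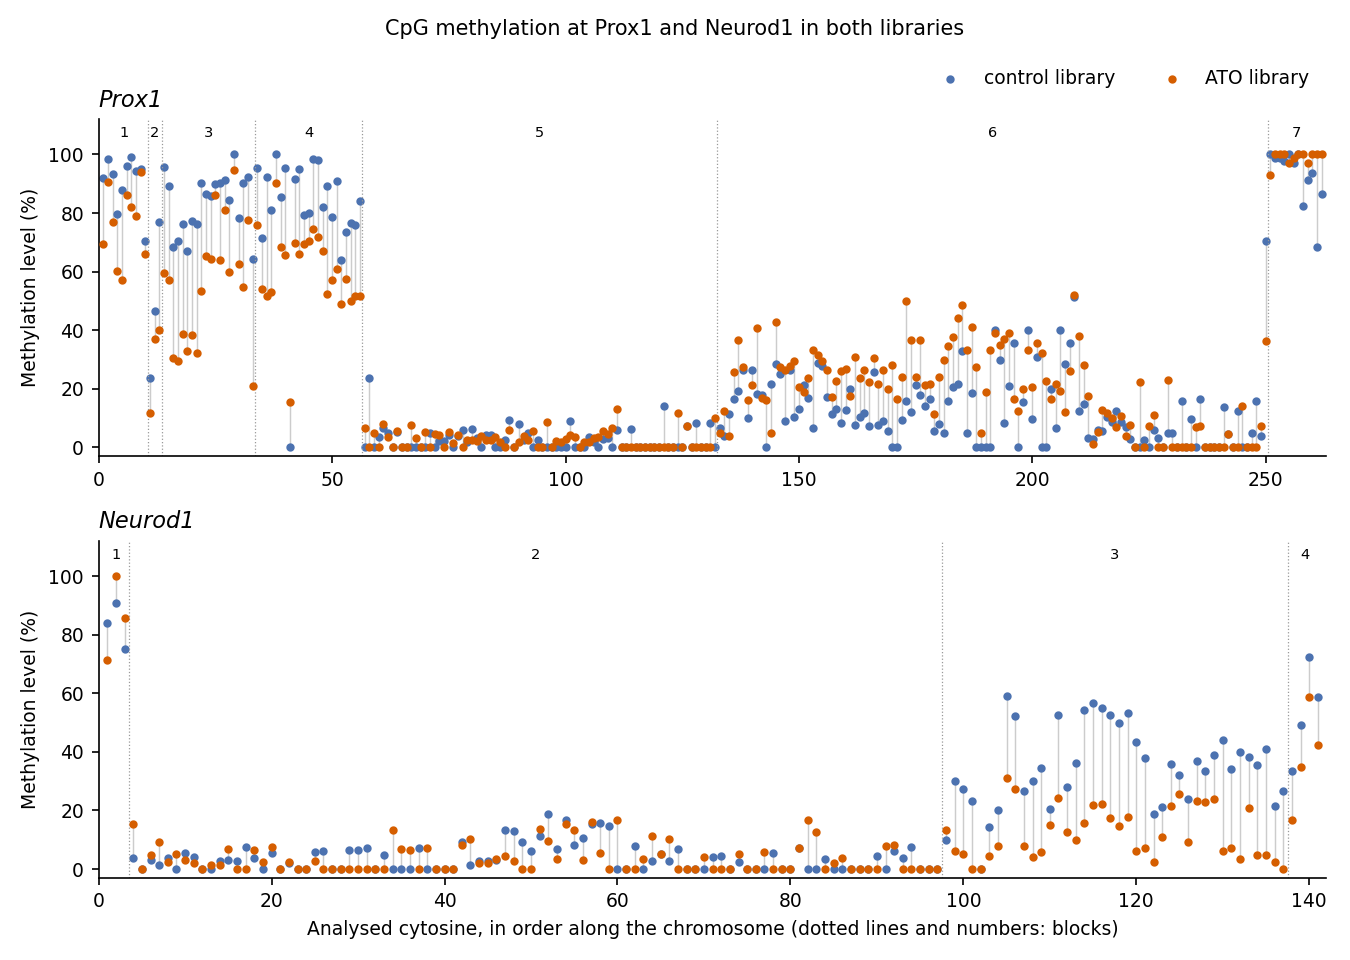
Methylation level (percent of reads with C) of each analysed cytosine at Prox1 (top) and Neurod1 (bottom), in order along the chromosome, in the control (blue) and exposed (ATO, orange) library, with grey lines joining the pair and dotted lines between numbered blocks. The unmethylated block 5 of Prox1 and block 2 of Neurod1 stay near 0 in both libraries. ATO points lie below control points at 55 of 56 cytosines of Prox1 blocks 1 to 4 (82.1% and 59.8%). They do so at 38 of 40 cytosines of Neurod1 block 3 (34.7% and 12.2%).

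At Neurod2, the start and the DNA after it were unmethylated in both libraries. The matched first transcribed base was chr11 position 98190959, minus strand, with a RefSeq gene length of 4.2 kb. The block chr11:98187980-98191017, which ends just upstream of the start, averaged 2.65% and 2.88% over 159 cytosines. The difference was 0.23 points (interval -3.03 to 3.48). By the mean of both libraries, its lowest dense bin was chr11:98188501-98189000 at 2.09% and 2.04%, and its highest chr11:98190501-98191000 at 4.34% and 3.50%. The bin chr11:98188001-98188500 read 2.01% and 5.80%. The 1 called cytosine there, position 98190920 among the first transcribed bases of the 300-base promoter, read 29.4% of 17 reads in the control against 0 of 49 in the exposed library, which allows up to 6.12% (adjusted p = 0.0238, exact test).

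Beyond the end of Neurod2, by the RefSeq length, the block chr11:98182880-98185793 was lower in the exposed library. It lies 5.2 to 8.1 kb downstream of the start and averaged 18.0% and 8.32% over 28 cytosines, with 23 lower and 4 higher. The difference was -9.72 points (interval -15.2 to -4.25), and 10.8% of blocks of the genome were as low. It held 2 called cytosines. Position 98183143 read 42.5% of 113 reads in the control against 7.38% of 122 in the exposed library (adjusted p = 1.48e-07, exact test), and position 98184379 read 70.0% and 16.7%. The bin with the largest difference, chr11:98183001-98183500, read 33.4% and 13.1% and was not called (adjusted p = 0.0935, exact test). The upstream block, 5.0 to 6.9 kb from the start, read 25.7% and 24.2% over 36 cytosines, a difference whose interval ran from -7.33 to 4.31.

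Tbr1 was the gene whose called cytosines were all higher in the exposed library. Its start was not placed, so positions are given alone. The block chr2:61641686-61644071 was unmethylated, at 3.41% and 3.86% over 79 cytosines (interval on the difference -2.50 to 3.42). The block chr2:61649375-61650616 averaged 18.5% in the control against 24.8% in the exposed library over 53 cytosines, of which 38 were higher and 11 lower. The difference was 6.32 points, with an interval from -4.08 to 16.7 that includes 0. Its bins differed in both directions. The bin chr2:61649001-61649500 read 54.2% and 76.4%, with 5 of 5 cytosines higher, and was not called (adjusted p = 0.425, exact test). The next bin, chr2:61649501-61650000, read 14.4% and 22.0%, with 32 of 37 cytosines higher. At the other end, chr2:61650501-61651000 read 37.4% and 19.3%, with 5 of 6 cytosines lower, and was not called. In the bin from 61649501, position 61649542 read 23.0% of 61 reads in the control against 73.6% of 53 in the exposed library (adjusted p = 1.75e-05, exact test). This was the largest difference among called cytosines that were higher in these spans.

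The block chr2:61652922-61654819 of Tbr1 ran from unmethylated to methylated DNA and averaged 16.0% and 19.3% over 61 cytosines (interval on the difference -4.84 to 11.5). It held 2 called cytosines. Position 61652922 read 19.6% of 51 reads and 67.8% of 59, and position 61654111 read 10% of 20 reads and 56.5% of 23. The adjusted p by the exact test were 7.02e-05 and 0.0452. By the mean of both libraries, the CpG-dense bins of the gene ran from 5.80% and 0% at chr2:61650001-61650500 to 30.5% and 36.2% at chr2:61654001-61654500, control and exposed in each case. The exposed value of the first rests on 5 cytosines at a mean depth of 12.4 reads, with an exact upper limit of 26.5%. The bin chr2:61654501-61655000 was higher in 5 of 5 cytosines, at 70.5% and 83.4%, and was not called. Away from dense DNA, the bin chr2:61658001-61658500 read 67.3% and 69.1%.

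**Figure D3:**
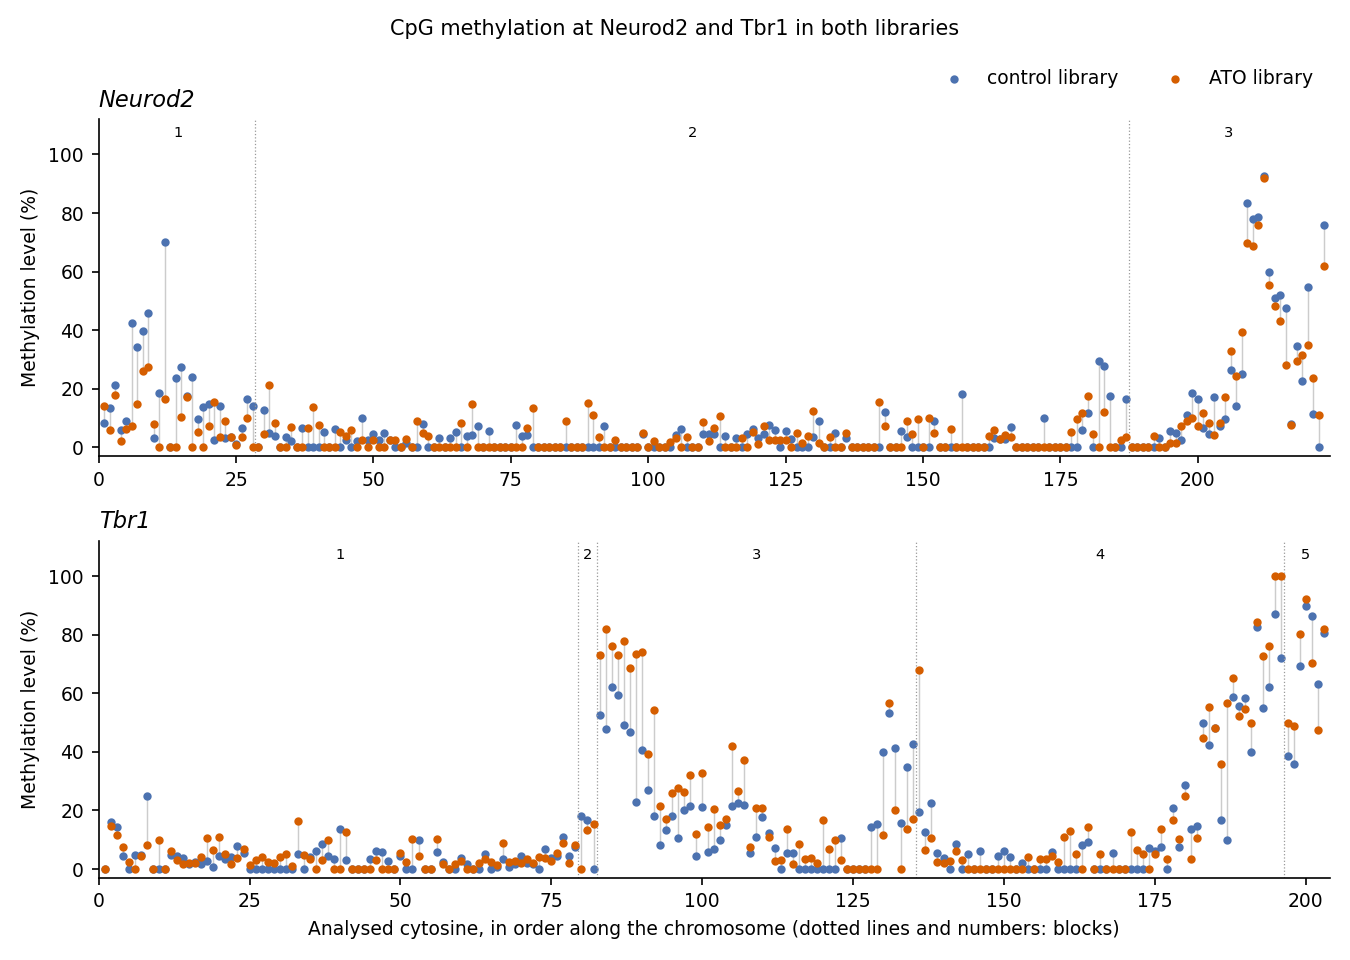
Methylation level (percent of reads with C) of each analysed cytosine at Neurod2 (top) and Tbr1 (bottom), in order along the chromosome, in the control (blue) and exposed (ATO, orange) library, with grey lines joining the pair and dotted lines between numbered blocks. Control points lie above ATO points at 23 of 28 cytosines of Neurod2 block 1 (18.0% and 8.32%), and ATO points lie above control points in most of Tbr1 block 3 (18.5% and 24.8%).

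Rbfox3, the longest gene of the set with 421.8 kb in RefSeq, showed scattered differences in both directions. Its 49 blocks included 17 with at least 10 cytosines, of which 11 were lower and 6 higher in the exposed library. The differences ran from -17.0 to 12.1 points, and 1 of the 17 intervals excluded 0. Its 2 longest blocks were CpG-rich and held dense bins with little methylation. The block chr11:118765545-118772949 averaged 12.3% and 11.6% over 128 cytosines (interval on the difference -4.30 to 2.88). The block chr11:118429585-118435381 averaged 16.6% and 18.1% over 100 cytosines, a difference of 1.55 points (interval -3.50 to 6.60). That value depended on the processing: it was 6.77 ± 6.20 points (95% counting error) at a coverage minimum of 30, which excludes 0. With each call weighted alike it was 6.19 points, for which no counting interval was computed. The least methylated dense bin by that mean, chr11:118431001-118431500, read 0.905% and 0%, the latter with an exact upper limit of 19.5%. The most methylated dense bin by the mean of both libraries was chr11:118719501-118720000, at 35.7% and 48.8% over 11 cytosines, next to chr11:118752501-118753000 in that order, at 42.0% and 41.9% over 30.

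Among Rbfox3 blocks with at least 10 cytosines, the one furthest below the control, chr11:118546758-118547094, read 30.9% in the control against 13.9% in the exposed library over 16 cytosines, of which 15 were lower. The difference was -17.0 points (interval -31.1 to -2.83), and 3.45% of blocks of the genome were as low. The one furthest above it, chr11:118719594-118719861, read 35.1% and 47.2% over 11 cytosines, with an interval from -11.3 to 35.6. Smaller blocks reached further. The block chr11:118488420-118488853, with 7 cytosines, was higher by 14.0 points (interval 0.54 to 27.5), and chr11:118724374-118724585, with 2, by 16.7 points (interval 5.16 to 28.2). The widest lower values of smaller blocks, -18.2 and -17.4 points, were of 1 cytosine each, with intervals that included 0. Within the block that starts at 118429585, 3 neighbouring bins were higher, and none was called. These read 39.1% and 58.2% at chr11:118432501-118433000, 33.9% and 45.1% in the bin after it, and 26.4% and 40.3% in the bin after that. The bin chr11:118435001-118435500, about 1 kb further on, was lower, at 28.5% and 9.62% (adjusted p = 0.433, exact test). Of the 54 Rbfox3 bins 0 were called by Fisher's exact test, and 2 had an unadjusted p under 0.05, 1 in each direction. Over the genome 12105 of 152175 bins had one.

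Single called cytosines of Rbfox3 also went both ways. The largest loss, at position 118435337, was from 63.8% of 47 reads to 19.6% of 46 (adjusted p = 0.00162, exact test). Position 118772567, at the edge of the first block, fell from 84.5% to 48.2%, and position 118546945 from 46.4% to 16.4%. The largest gain, at position 118719685, was from 34.3% of 35 reads to 71.7% of 53 (adjusted p = 0.0281, exact test). Position 118412816 rose from 8.06% to 41.1% and position 118432908 from 57.0% to 88.6%.

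**Figure D4:**
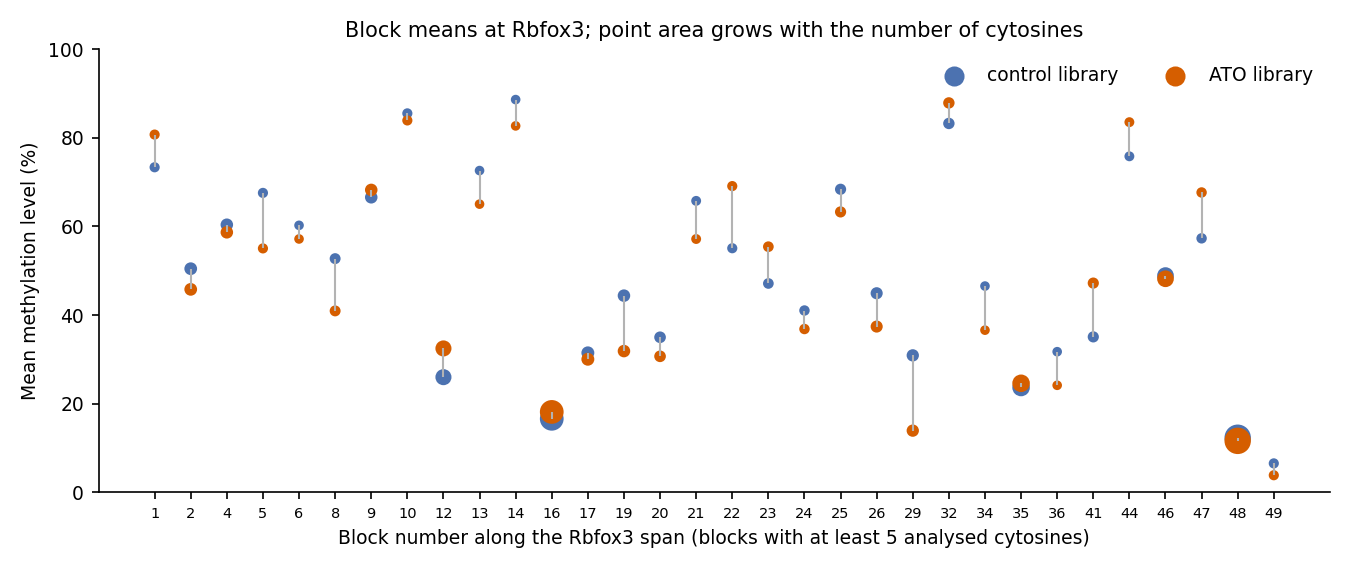
Mean methylation level (%) of each Rbfox3 block with at least 5 analysed cytosines, in order along the chromosome, in the control (blue) and exposed (ATO, orange) library, with point area growing with the number of cytosines. The 2 largest blocks, 16 and 48, sit between 11.6% and 18.1% in both libraries, and the others lie above and below each other with no common direction.

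Levels were then compared by CpG density, which was set without regard to methylation. A bin was dense with at least 15 listed CpGs per 500 bp, a shore lay within 2000 bp of a dense bin, and the rest was farther away. Dense DNA averaged 14.0% and 16.8% at Prox1, 11.8% and 6.19% at Neurod1, 2.51% and 2.82% at Neurod2, 8.77% and 10.7% at Tbr1, and 16.0% and 14.4% at Rbfox3, in the control against the exposed library. At these settings each of the 5 intervals included 0. That of Neurod1 ran from -11.4 to 0.19 and excluded 0 under 4 alternatives, with differences from -6.83 to -5.42 points. With each call weighted alike the Prox1 difference was 4.22 points, a value for which no counting interval was computed. Over the genome dense DNA read 16.0% and 15.6%.

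Shores differed more, and not in 1 direction. At Neurod1 they read 22.9% and 10.6% over 29 cytosines, a difference of -12.3 points (interval -19.0 to -5.67), and at Neurod2 23.3% and 18.1% over 61 cytosines (interval -9.41 to -0.95). The Neurod1 value was -7.38 points with at least 20 listed CpGs per dense bin. The Neurod2 value, -5.18 points, was then -1.60 ± 5.73, and its interval also included 0 with shores of 1000 bp (-3.43 points) and at a coverage minimum of 5 (-4.13 points). At Tbr1 they read 42.0% and 56.5% over 16 cytosines, a difference of 14.5 points (interval 7.22 to 21.8), which was 8.51 points with at least 20 listed CpGs and 8.98 points with shores of 4000 bp. At Rbfox3 they read 40.1% and 42.6% over 122 cytosines (interval -1.78 to 6.70), and at a coverage minimum of 30 the difference was 4.29 ± 4.02 points, which excludes 0. At Prox1 the 19 shore cytosines read 41.6% and 30.1%, a difference of -11.5 points (interval -17.4 to -5.56). That value depended on the density limit and became 6.39 points with at least 20 listed CpGs per dense bin, when shores held 72 cytosines. Over the genome shores differed by -1.07 points. In the rest, Prox1 read 85.2% and 69.8% over 45 cytosines, a difference of -15.4 points (interval -19.9 to -10.9), while Rbfox3 read 55.4% and 54.0% over 260 cytosines (interval -3.96 to 1.15). Tbr1 read 49.8% and 49.98% over 10. Neurod1 and Neurod2 had 3 and 1 cytosines in this class and were not compared.

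**Figure D5:**
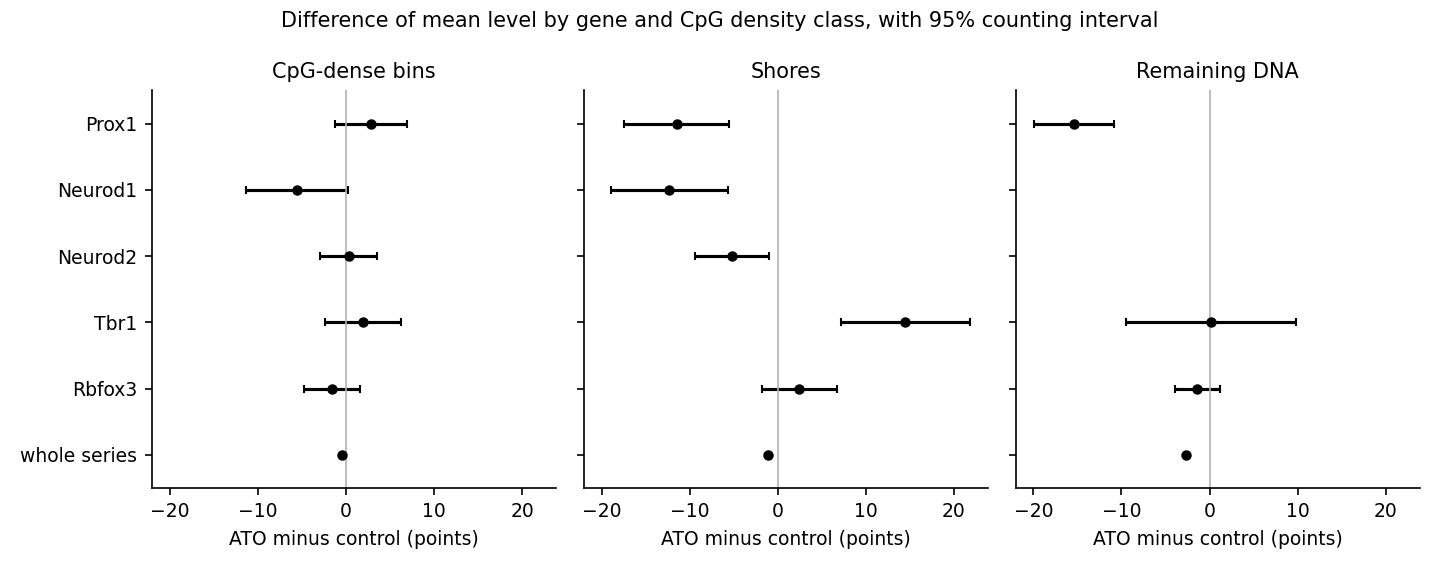
Difference of the mean level, ATO minus control in percentage points, for dense bins, shores and the remaining DNA of each gene and of the whole series, with 95% counting intervals as bars. Classes with under 5 cytosines are left out. The bars of the dense bins of the 5 genes all cross 0, shores of Neurod1 (-12.3) and Tbr1 (14.5) lie on opposite sides of 0, and the remaining DNA of Prox1 is at -15.4.

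Runs of unmethylated cytosines were measured as well. A run was a row of neighbouring analysed cytosines under 10%, with gaps of up to 2000 bp between them. The longest in the control was 1708 bp at Prox1, 1026 at Neurod1, 1288 at Neurod2, 1569 at Tbr1 and 974 at Rbfox3. That of Prox1 held 13 cytosines and crossed DNA without an analysed cytosine, between chr1 positions 191994697 and 191996209. In the exposed library the runs were 1344, 462, 871, 721 and 2517 bp, in the same gene order. Only at Neurod1 did the longest runs of the libraries overlap, so the other pairs of lengths do not compare the same stretch. At Rbfox3 the run started at position 118430513 in the control and at 118768835 in the exposed library. These starts were 61641912 and 61653115 at Tbr1, 98188600 and 98190025 at Neurod2, and 191994538 and 191992744 at Prox1. Run length depended on the level limit: the median over the genes rose from 1288 to 3085 bp in the control against from 871 to 3357 bp in the exposed library when cytosines under 20% were allowed. The order of the libraries in these medians thus turned with the limit. Single genes also depended on the coverage minimum: at 20 reads Neurod1 had 1026 bp in the control and 1020 bp in the exposed library, and Prox1 3425 and 1585 bp.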

How the data were processed

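Target-enriched bisulfite libraries (SureSelect Mouse Methyl-Seq, per the labels' protocols) were aligned to mm9; Bismark 0.19.0, Bowtie2 and bcl2fastq were used, per the submitters' processing notes. How reads were trimmed, deduplicated or filtered was not given in the sources used here. The deposited tables give, per the file headers, the coverage of each CpG cytosine by strand as a raw read count, and C and T as a percent of it. Coverage times percent C gave the methylated count, and 100% of products were whole within 0.005 points. Remaining duplicates would make intervals and tests too narrow, as both hold counting error alone.

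Cytosines with at least 10 reads in both libraries were analysed with Python 3.11.15, numpy 2.4.6, pandas 2.3.3 and scipy 1.17.1. Cytosines, and 500-bp bins with at least 5 cytosines, were each tested by Fisher's exact method, with Benjamini-Hochberg adjusted p over the genome. Bin sums were divided by the largest number of cytosines in any 300 bp. The callers were tested on simulated data. Levels are means over cytosines, and 95% counting intervals use the divided sums; those of bins and cytosines are exact binomial (Clopper-Pearson). A count of 0 allows 3 counts.

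The members, lists and classes were chosen with earlier results of these data known. Named were all 5 genes, all called bins, up to 3 called cytosines a direction and gene, the highest and lowest dense bins, and the bins outside them that differed most; the other bins given were picked after their values were seen. Blocks, and the limit of 2 listed CpGs outside a matched promoter sequence, were added after seeing the data; a match needed 90% of CpGs listed at 1 place. Other neuronal and glial genes need an mm9 annotation and were not analysed here. Alternatives changed the coverage minimum, strand, thresholds, bin size, weighting and class limits.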

Additional observations from a re-analysis of the deposited data

How the results depend on the processing

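No paired analysis was possible because each group held 1 library. Among mean differences per gene and class under the alternatives, 136 values moved by less than the counting error of the main value, 135 of them with the same sign, 3 moved more and 1 reversed. The other change of sign was in Neurod2 dense DNA, 0.31 points and -0.39 with at least 10 listed CpGs. Some of the 136 values could not move. All analysed cytosines at Prox1, Neurod1, Neurod2 and Tbr1 were on the reverse strand, so the reverse-strand setting repeats their main values. Shore limits likewise leave dense DNA unchanged. Prox1 shores differed by -11.5 points, but by 6.39 points with at least 20 listed CpGs per dense bin, by -23.0 points with at least 10, and by -4.77 points with shores of 4000 bp; the rest of Prox1 was then at -23.1 points. These settings move cytosines between classes by construction. An adjusted p under 0.01 left 39 of the 63 called members, and called bins rose from 3 to 8 (7 lower, 1 higher) with all calls counted, which adds bins at Prox1, Neurod1, Neurod2 and Tbr1. The 3 called bins stayed called under each of the 6 settings that kept them as bins. Counting all calls or a limit of 10 points eases a call, and the reverse-strand setting kept the same Prox1 cytosines. Only the coverage minimums of 5, 20 and 30 were thus checks that could have removed a call. Named cytosines lost their call in 7 cases and reversed in 0. Of these, 6 were lost at an adjusted p under 0.01, and position 61654111 of Tbr1 also at a coverage minimum of 5. Cytosines that failed a raised coverage minimum were not counted. These were positions 192003209 of Prox1 and 98190920 of Neurod2 at 20 and 30 reads. At 30 reads positions 79299528 of Neurod1, 98184379 of Neurod2 and 61654111 of Tbr1 failed as well. The median longest unmethylated run was 1288 bp in the control and 871 bp in the ATO library. In the control it was 2018 bp at a coverage minimum of 30, 3085 bp under 20% and 552 bp under 5%. In the ATO library it was 1346 bp at minimums of 20 and 30, 3357 bp under 20% and 544 bp under 5%. Block differences were recomputed under 5 alternatives chosen after seeing the data. There 154 values moved by less than the counting error, 142 of them with the same sign. The reverse-strand setting was among the 5 and could not move blocks of Prox1, Neurod1, Neurod2 and Tbr1. The Neurod1 upstream block ranged from -27.0 to -22.5 points and the deepest Prox1 block from -30.9 to -27.4 points. The Rbfox3 block at chr11:118429585-118435381 was at 6.77 ± 6.20 points at a coverage minimum of 30, excluding 0, against 1.55 points. It was at 6.19 points with each call weighted alike, a setting that changed the means but not the counting error. For these values the cause was not tested. At the Prox1 and Neurod2 promoters 5 and 8 CpGs were analysed, at median depths of 24 and 17 reads in the control.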
